A study of Mus musculus with 10 samples.

Results

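The histone genes on the array were taken by name: every non-control probe whose gene name begins with Hist1h to Hist4h, H1f, H2af or H3f. This gave 64 genes on 77 of 55681 probes, 48 of them replication-dependent (Hist prefix) and 16 variant. In all, 46 of the 64 genes were measured, that is, their signal stood clear of background on both arrays of 1 group or more, out of 18051 measured genes on the array; 35 of the 48 replication-dependent and 11 of the 16 variant genes were among them. The other 18 genes cleared background on 3 arrays at most, and 9 of those on 0 arrays.

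RNA came from RAW264.7, an established mouse macrophage-like cell line, hybridised to 10 single-colour Agilent arrays in 5 groups of 2. The groups are EtoH, whose labels name no glucocorticoid, dexamethasone (labelled Dex), fluticasone furoate (FF), and the glucocorticoids VSG22 and VSGC12, known here by code names alone. Each glucocorticoid was given at 100 nM, LPS (lipopolysaccharide from bacterial cell walls, an activator of macrophages) followed 1 hour later at 1 µg/ml, and RNA was harvested at 16 hours. The labels do not state whether EtoH cells received LPS. If they did not, a change against EtoH holds the effects of LPS and of the glucocorticoid together, and these cannot be told apart here. The labels also do not state whether replicates were separate cultures, so the p-values measure the spread between these samples, which may be technical.

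Histones are the proteins around which DNA is wound: H2A, H2B, H3 and H4 form the core particle and H1 binds the linker between particles. Replication-dependent genes lie in clusters, are transcribed mainly while DNA is copied, and give mRNAs that usually end in a conserved stem-loop in place of a poly(A) tail, although some loci also make longer, polyadenylated transcripts. Variant genes such as those for H3.3, H2A.Z and macroH2A stand alone, carry poly(A) tails and are expressed through the cell cycle. The labelling kit named in the labels starts from 150 ng of RNA with a primer that carries oligo-dT, so the form of a histone transcript bears on what an array reads. Which form was labelled was not measured here.

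Where a probe sits relative to the stem-loop separates several of the results, so 30-base stretches from 4 probes are shown with the stem-loop, or the part of it inside the stretch, in capitals. The probe of Hist1h2ab (mm9 chr13:23843392-23843451, 60 bases) ends inside the stem-loop. Those of Hist2h2bb (chr3:96074056-96074115) and Hist1h3i (chr13:21874784-21874843) end 6 and 5 bases past it. The probe of Hist2h2aa1 (chr3:96049949-96050008) reaches 38 bases past it.
Hist1h2ab: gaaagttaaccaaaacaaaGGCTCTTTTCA
Hist2h2bb: acccaaaaGGCTCTTTTCAGAGCCacttta
Hist1h3i: ataacaaaaGGCTCTTTTCAGAGCCccctc
Hist2h2aa1: GGCTCTTTTCAGAGCCacccactgaatcag

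Several H2A genes have probes that are nearly the same sequence, and these are shown because their signals cannot be told apart with certainty. The 4 probes printed here cover the end of the H2A coding sequence, each 60 bases long, and capitals mark bases that differ from the probe of Hist1h2af, 5 in each of the others. They lie at mm9 chr13:23626113-23626172 (Hist1h2af), chr13:21845304-21845363 (Hist1h2ak), chr13:21878695-21878754 (Hist1h2an) and chr3:96049837-96049896 (Hist2h2aa2).
Hist1h2af: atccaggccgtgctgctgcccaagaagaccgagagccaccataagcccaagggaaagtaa
Hist1h2ak: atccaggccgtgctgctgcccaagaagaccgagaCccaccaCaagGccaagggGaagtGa
Hist1h2an: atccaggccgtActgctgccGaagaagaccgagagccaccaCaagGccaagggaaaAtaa
Hist2h2aa2: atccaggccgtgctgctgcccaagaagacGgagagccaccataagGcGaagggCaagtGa
With at most 6 mismatches as the limit, 6 H2A genes form 1 such group (these 4, Hist1h2ag and Hist1h2ah), with log2 changes from 0.23 to 1.44 for the mean of the 4 glucocorticoids against EtoH. A second group holds the H4 genes Hist1h4d, Hist1h4j and Hist1h4k (0.62 to 0.85), and another pairs the variant H2afj with Hist2h2ac (0.33 and 0.48). The files give for the Hist1h2ag probe a span on chromosome 13 far longer than the probe, so its place is uncertain.

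Values are log2 processed signals minus the array's own 75th percentile, which was lowest in EtoH replicate 1 (315.3) and highest in Dex replicate 2 (428.5). Between arrays, 40.1% to 44.4% of spots cleared background and saturated spots numbered 0; precision is limited by the number of arrays. Across the 46 histone genes the SD between the replicates of a group had a median of 0.1 in EtoH and VSGC12, 0.11 in FF, 0.13 in Dex and 0.15 in VSG22, on the log2 scale. All 7 listed macrophage markers were measured, and for the mean of the 4 glucocorticoids 3 rose and 1 fell. Of 12 markers of T cells, B cells, fibroblasts and epithelium, the T-cell gene Cd3e and the fibroblast gene Dcn were measured, and neither was called for the mean of the 4 glucocorticoids (changes of -0.16 and -0.01).

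For the mean of the 4 glucocorticoids against EtoH, 35 of the 46 histone genes were called (limma, adjusted p under 0.05), 20 of them higher and 15 lower, where 44.2% of all tested genes were called, 21.6% higher and 22.5% lower. At an unadjusted p under 0.05 the count was 38 of 46, against 52.7% of all genes. The replication-dependent genes split into 16 that rose, 12 that fell and 7 that did not pass the test, with a median change of 0.40 and a range from -2.68 to 2.39; over all genes the median was 0.00. Of the 11 variants, 4 rose, 3 fell and 4 did not pass, within the narrower range of -0.77 to 0.53 (median 0.31). A called change of at least 2-fold was seen in 11 replication-dependent genes, 4 higher and 7 lower, and in 0 variants, against 7.99% of all tested genes. These counts use 1 probe per gene. A second probe of the variant H2afz rose by 1.06 (adjusted p = 5.7e-05, limma at probe level). A second probe of Hist1h2ak rose by 1.1 (adjusted p = 0.00027, limma at probe level). The further measured probes under the names of the other genes changed by less than 2-fold. Leaving out EtoH replicate 2 reduced the called histone genes to 23 and the replication-dependent genes that rose to 8, and left 1 variant that rose and 1 that fell. With the array median in place of the 75th percentile, which moves the median of all genes by 0.12 upward, 20 histone genes were called, 1 variant rose and 1 fell, and the share of all calls that were higher went from 49.0% to 70.3%. No called histone gene changed direction under any of the 20 alternatives run, and within each of the 2 slides all 35 had the sign of the whole fit. The genes were called on these same arrays, so the agreement between slides was largely fixed in advance. The share of all called genes with that agreement was not computed. In RNA from whole cultures, a different share of dividing cells and a different RNA content per cell cannot be told apart.

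**Figure D1:**
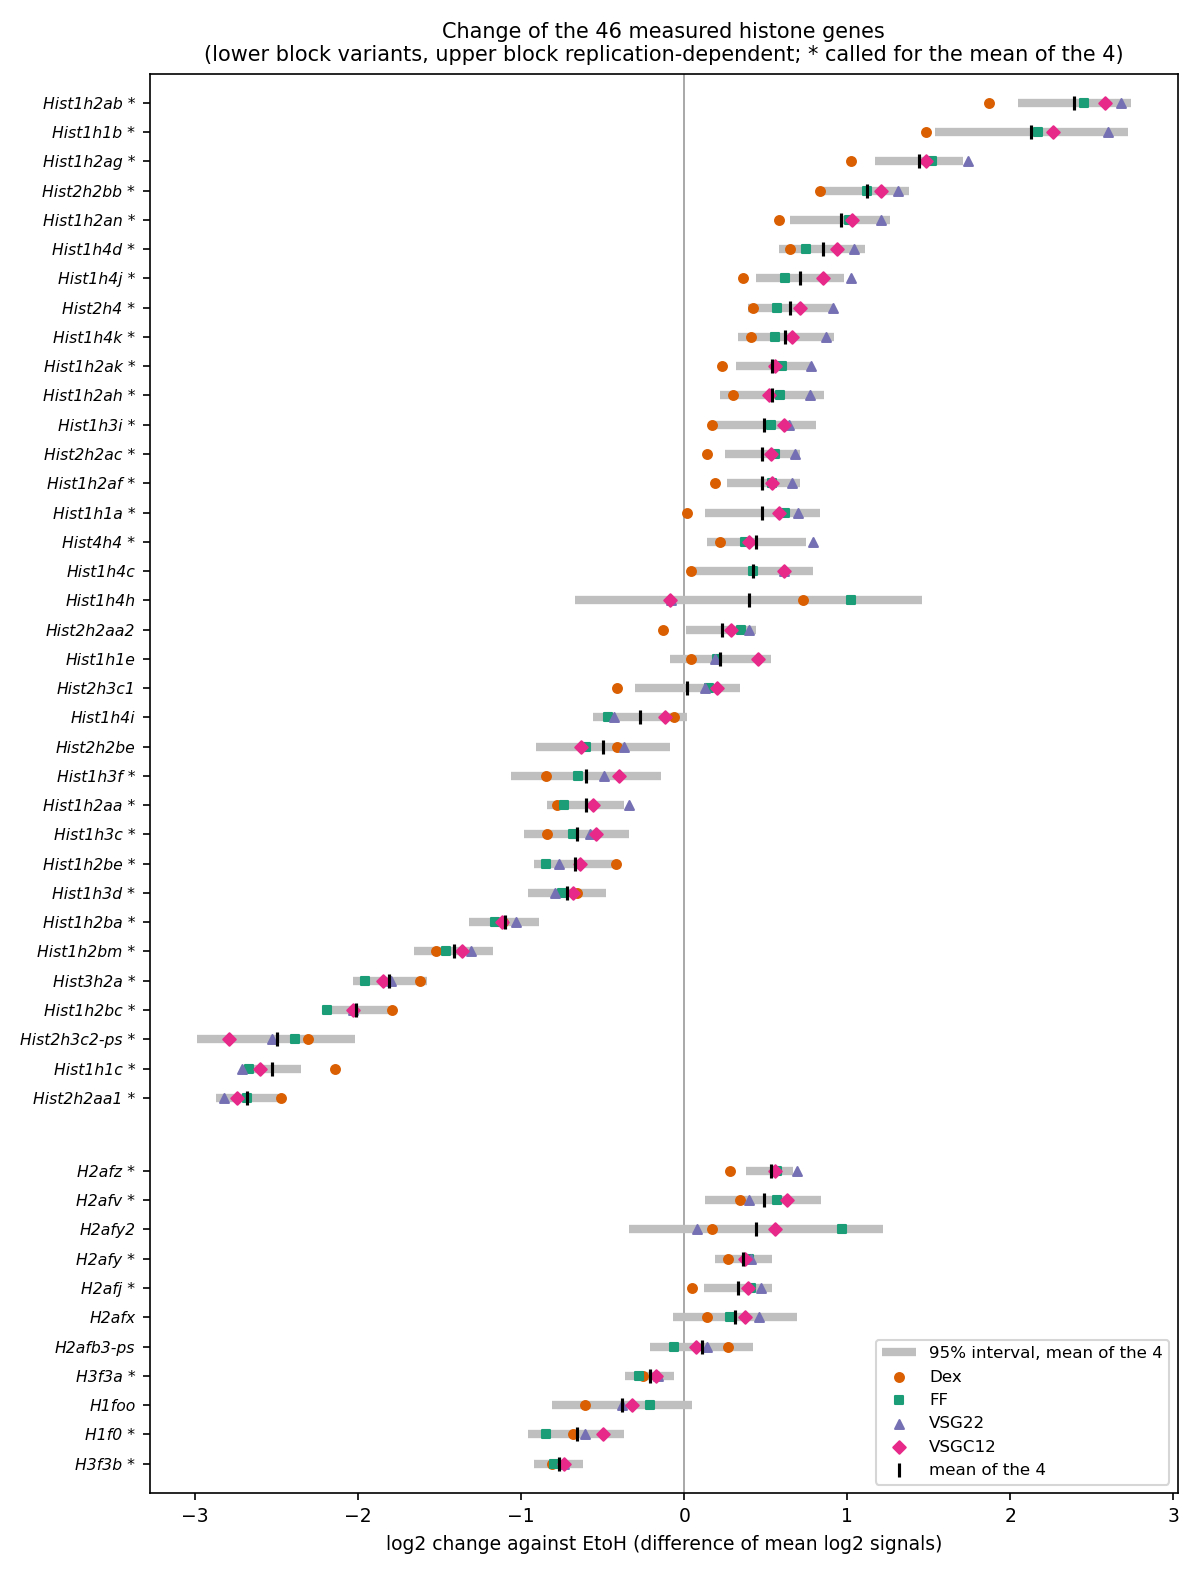
Log2 change against EtoH (horizontal axis, difference of mean log2 signals) for the 46 measured histone genes: coloured symbols are the 4 glucocorticoids, black ticks their mean and grey bars its 95% interval from limma; asterisks mark the 35 genes called. The replication-dependent genes (upper block) span -2.68 to 2.39 and the variants (lower block) -0.77 to 0.53, and the Dex symbol is the lowest of the 4 in all 20 genes that rose.

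The highest change was that of Hist1h2ab, which encodes a core H2A. It read 2.42 and 2.23 in EtoH, 4.31 and 4.08 in Dex, 4.69 and 4.86 in FF, 5.27 and 4.74 in VSG22, and 4.93 and 4.89 in VSGC12. All 8 glucocorticoid arrays lay above both EtoH arrays, a rise of 2.39 ± 0.14 (SE) on the log2 scale or 5.26-fold (adjusted p = 4.8e-05, limma). Hist1h1b, which encodes the linker histone H1.5, read 0.10 and -0.32 in EtoH, 1.56 and 1.18 in Dex, 2.31 and 1.81 in FF, 2.89 and 2.09 in VSG22, and 2.27 and 2.02 in VSGC12. The groups did not overlap, and the gene rose by 2.13 ± 0.25 (4.37-fold, adjusted p = 0.00078).

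Another H2A gene, Hist1h2ag, rose by 1.44 ± 0.11 (2.72-fold, adjusted p = 0.00015), the highest in its group of near-identical probes. Its signals were 5.85 and 5.64 in EtoH, 6.81 and 6.73 in Dex, 7.34 and 7.20 in FF, 7.66 and 7.31 in VSG22, and 7.33 and 7.14 in VSGC12, again with no overlap. Hist1h2an, one of the probes shown, rose by 0.96 ± 0.13 (1.94-fold, adjusted p = 0.0014), from 5.45 and 5.33 in EtoH to 6.08 and 5.86 in Dex, 6.55 and 6.25 in FF, 6.77 and 6.41 in VSG22, and 6.51 and 6.34 in VSGC12. With Hist1h2ab, Hist1h2ag and Hist1h2an, Hist1h2af, Hist1h2ah, Hist1h2ak and Hist2h2ac make up the 7 of 11 H2A genes that rose (21.6% of all tested genes did). The last 4 of the 7 changed by 0.48 to 0.54. Hist2h2aa2 (0.23 ± 0.09, adjusted p = 0.082) did not pass, and 3 H2A genes fell.

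The H2B gene Hist2h2bb was the sole one of 6 H2B genes to rise, by 1.12 ± 0.11 (2.17-fold, adjusted p = 0.00039). It read -0.17 and -0.10 in EtoH, 0.84 and 0.55 in Dex, 0.99 and 0.97 in FF, 1.35 and 1.00 in VSG22, and 1.06 and 1.08 in VSGC12, so every glucocorticoid array was higher than both EtoH arrays. However, a probe that the files describe as Hist2h2bb under another name, at base 1340 of its transcript, changed by -2.91. Among the H4 genes 5 of 8 rose and 0 fell, against 21.6% and 22.5% of all tested genes. Of the 8 H4 genes, 6 had an unadjusted p under 0.05 (52.7% of all genes did). The highest was Hist1h4d, from 3.90 and 3.60 in EtoH to 4.47 and 4.32 in Dex, 4.42 and 4.58 in FF, 4.90 and 4.66 in VSG22, and 4.61 and 4.76 in VSGC12, a rise of 0.85 ± 0.11 (1.80-fold, adjusted p = 0.0013). Hist1h4j (0.71), Hist2h4 (0.65), Hist1h4k (0.62) and Hist4h4 (0.44) rose as well, and the call of Hist4h4 was lost in 9 of 20 alternatives. The remaining H4 genes, Hist1h4c (0.42), Hist1h4h (0.40) and Hist1h4i (-0.27), did not pass, and Hist1h4h had the widest replicate spread of the set, with SDs of 0.99 in Dex and 1.05 in VSGC12. Probes described as Hist1h4i and Hist1h4m under other names changed by -2.06 and -0.69, and a probe described as Hist1h4d by 0.85.

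The lowest change was that of Hist2h2aa1, an H2A gene of the chromosome 3 cluster. It read 5.69 and 5.62 in EtoH, 3.14 and 3.23 in Dex, 3.09 and 2.86 in FF, 2.79 and 2.88 in VSG22, and 2.97 and 2.86 in VSGC12. Every glucocorticoid array was far below EtoH, and the signal of its probe fell by 2.68 ± 0.08 (6.4-fold lower, adjusted p = 4.7e-06). Its probe starts 52 bases past the end of the Hist2h2aa2 probe in mm9, whose change was 0.23. The files place both probes on the plus strand, whereas the RefSeq promoter of Hist2h2aa2 lies on the minus strand. Both probes may thus read the Hist2h2aa1 locus, in its body and past its stem-loop, which was not tested. Hist1h1c, which encodes the linker histone H1.2, fell by 2.53 ± 0.07 (5.77-fold lower), from 4.20 and 4.40 in EtoH to 2.16 and 2.17 in Dex, 1.60 and 1.66 in FF, 1.63 and 1.57 in VSG22, and 1.64 and 1.76 in VSGC12.

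Hist2h3c2-ps, named as a pseudogene in the files and as the H3 gene H3c15 in the current table, read -0.19 and -0.25 in EtoH, -2.56 and -2.50 in Dex, -2.71 and -2.50 in FF, -2.84 and -2.67 in VSG22, and -2.56 and -3.45 in VSGC12. It fell by 2.50 ± 0.21 (5.67-fold lower, adjusted p = 0.00018), with no overlap. Hist1h2bc, an H2B gene, went from 4.98 and 4.96 in EtoH to 3.32 and 3.06 in Dex, 2.71 and 2.86 in FF, 2.93 and 2.95 in VSG22, and 2.92 and 2.97 in VSGC12. This was a fall of 2.01 ± 0.08 (4.03-fold lower, adjusted p = 1.2e-05).

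Hist3h2a, the H2A gene of the small chromosome 11 cluster, fell by 1.81 ± 0.10 (3.5-fold lower, adjusted p = 3e-05); its arrays read 2.43 and 2.38 in EtoH, 0.95 and 0.63 in Dex, 0.50 and 0.40 in FF, 0.66 and 0.56 in VSG22, and 0.62 and 0.49 in VSGC12. Hist1h2bm, another H2B gene, read 2.64 and 2.57 in EtoH, 1.19 and 0.97 in Dex, 1.26 and 1.02 in FF, 1.40 and 1.19 in VSG22, and 1.31 and 1.18 in VSGC12. It fell by 1.41 ± 0.10 (2.67-fold lower, adjusted p = 9.8e-05), and in neither gene did the groups overlap. In all, 4 of 6 H2B genes fell (with Hist1h2ba at -1.10 and Hist1h2be at -0.67), where 22.5% of all tested genes fell. Hist2h2be (-0.50, limma, adjusted p = 0.053) did not pass. Hist2h2be was not well above background in VSGC12. With the lowest signal that cleared background on those arrays as a floor, it was at least 1.27-fold lower there than in EtoH. The difference was not called (limma, adjusted p = 0.065), and EtoH itself lay near that floor (-3.09 against -3.44), so the bound is not firm.

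Of 6 H3 genes, 4 fell (22.5% of all tested genes did): Hist2h3c2-ps, Hist1h3d (-0.72), Hist1h3c (-0.66) and Hist1h3f (-0.60). The call of Hist1h3f was lost in 12 of 19 alternatives, and its arrays overlapped with EtoH. Hist1h3i rose by 0.49 ± 0.14 (adjusted p = 0.025) but was not called in 7 of 20 alternatives, and Hist2h3c1 (0.02) was not called. Among the 4 linker genes Hist1h1a rose (0.48, called in 9 of 20 alternatives) beside Hist1h1b, Hist1h1c fell, and Hist1h1e (0.22) did not pass. Besides Hist2h2aa1 and Hist3h2a, the H2A gene Hist1h2aa fell, and changed by -0.60; it and the neighbouring Hist1h2ba encode histones best known from the testis.

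**Figure D2:**
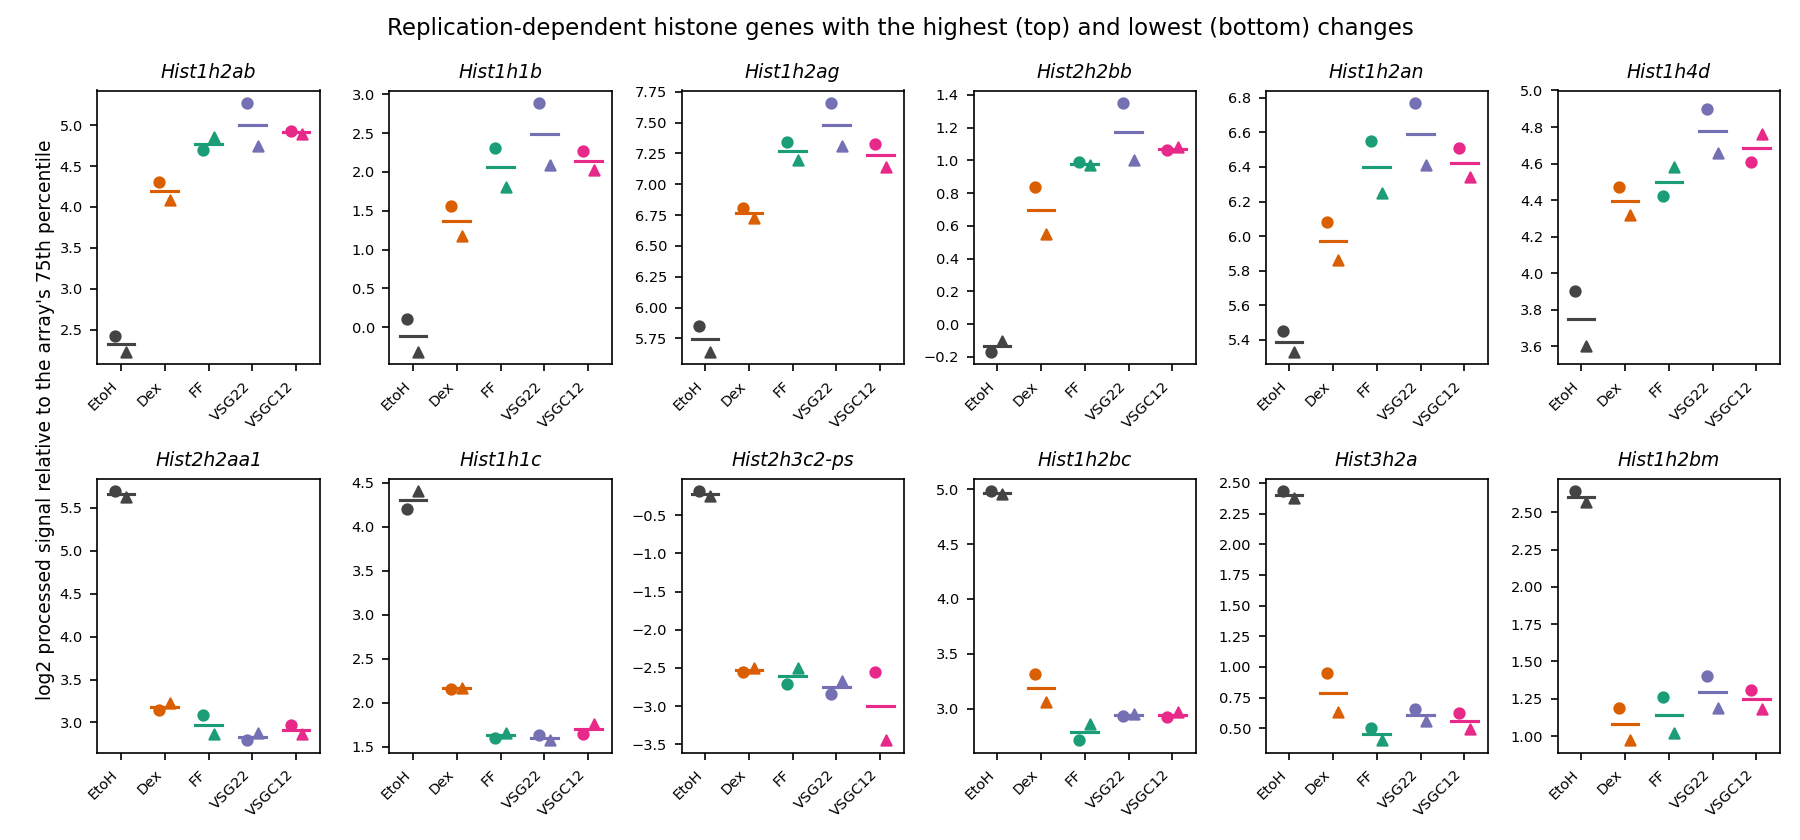
Log2 processed signal relative to the array's 75th percentile (vertical axis, separate scale per gene) on every array for the 6 replication-dependent genes with the highest (top row) and the 6 with the lowest change (bottom row); circles are replicate 1, triangles replicate 2 and lines group means. In each of the 12 genes all 8 glucocorticoid arrays lie on 1 side of both EtoH arrays.

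All glucocorticoid arrays with a value (8, or 7 for H2afz) stood above both EtoH arrays in 13 replication-dependent genes and 3 variants, and below both in 11 and 3, which makes 30 of 46 histone genes without overlap, where 47.4% of all measured genes had none. Some neighbouring genes changed in opposite directions. Probes of Hist1h2ab (2.39) and Hist1h1c (-2.53) lie 11314 bases apart on mm9 chromosome 13, those of Hist1h3c (-0.66) and Hist1h2ab 6004 bases apart, and those of Hist1h4d (0.85) and Hist1h2be (-0.67) 2035 bases apart. The Hist1h1c and Hist1h2be probes lie beyond the stem-loop and the others in the transcript body, as defined below. Pairs with Hist1h1c or Hist1h2be thus compare unlike parts of transcripts as well as neighbouring genes. By cluster, 12 of the 25 measured Hist1 genes rose and 9 fell, and 3 of 8 Hist2 genes rose and 2 fell. Of all tested genes 21.6% rose and 22.5% fell, and the share of Hist2 genes that fell was near the latter.

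The changes differed by where the probe lies in its transcript, a split made after earlier results were known and given without a test. A probe was counted as beyond the stem-loop if it reached 30 or more bases past it or, where it held no stem-loop, if it began at base 480 or later of a core histone transcript or base 1000 or later of an H1 transcript, as the files give the position. Of the 8 such genes, 0 rose, 6 fell (Hist2h2aa1, Hist1h1c, Hist2h3c2-ps, Hist1h2bc, Hist3h2a and Hist1h2be) and Hist2h2be and Hist1h4i did not pass, with a median change of -1.91; 7 of the 8 had an unadjusted p under 0.05. Of the 27 genes with the probe in the body of the transcript, 16 rose, 6 fell and 5 did not pass (median 0.48). The 6 that fell were Hist1h2bm, Hist1h2ba, Hist1h3d, Hist1h3c, Hist1h2aa and Hist1h3f, so position alone did not separate the directions. Of all tested genes, 21.6% were called higher, 22.5% lower, and 52.7% had an unadjusted p under 0.05. The share of body genes that fell was thus near that of all genes. Core-histone probes in the body began at bases 3 to 435, and those beyond the stem-loop at bases 483 to 2375, where the lowest is Hist1h4i (-0.27) and the next Hist2h2aa1 at base 488. Where these transcripts end in the RNA hybridised here was not tested.

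**Figure D3:**
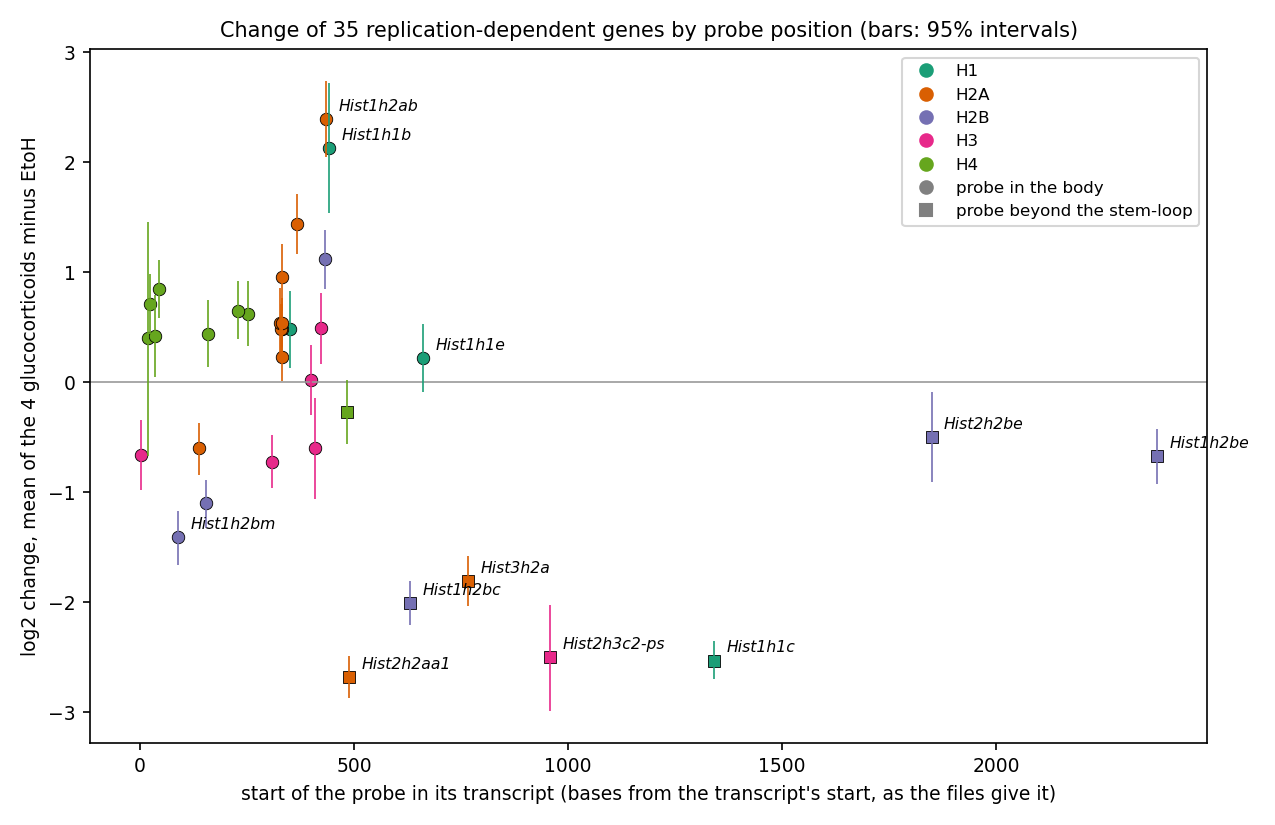
Log2 change of the mean of the 4 glucocorticoids minus EtoH (vertical axis) against the base of the transcript at which the probe starts (horizontal axis) for 35 replication-dependent genes, coloured by histone family, with 95% intervals from limma. The 8 probes beyond the stem-loop (squares) lie between -2.68 and -0.27, and the 27 body probes (circles) between -1.41 and 2.39.

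Among the variants, the H3.3 gene H3f3b had the lowest change. It read 6.60 and 6.55 in EtoH, 5.82 and 5.70 in Dex, 5.83 and 5.71 in FF, 5.84 and 5.84 in VSG22, and 5.86 and 5.81 in VSGC12, all 8 below EtoH. It fell by 0.77 ± 0.06 (1.71-fold lower, adjusted p = 0.00018), and 2 further probes of the gene changed by -0.43 and -0.31. H3f3a, which encodes the same H3.3 protein, read 6.33 and 6.37 in EtoH, 6.18 and 6.03 in Dex, 6.11 and 6.05 in FF, 6.16 and 6.23 in VSG22, and 6.19 and 6.18 in VSGC12. It fell by 0.21 ± 0.06 (1.16-fold lower, adjusted p = 0.031), without overlap, and lost that call in 10 of 20 alternatives.

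H1f0, the replacement linker histone H1.0 known from cells that have stopped dividing, read -1.08 and -0.86 in EtoH, -1.85 and -1.45 in Dex, -1.88 and -1.76 in FF, -1.51 and -1.65 in VSG22, and -1.56 and -1.37 in VSGC12. It fell by 0.66 ± 0.12 (1.58-fold lower, adjusted p = 0.0055), with no overlap. H1foo, a linker histone best known from oocytes, read -0.80 and -1.16 in EtoH, -1.31 and -1.87 in Dex, -1.23 and -1.13 in FF, -1.49 and -1.22 in VSG22, and -1.48 and -1.13 in VSGC12. The groups overlapped, and its change of -0.38 ± 0.18 did not pass (adjusted p = 0.13).

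H2A.Z, a variant found around transcription start sites, is encoded by H2afz and H2afv. H2afz read 6.89 and 6.88 in EtoH, 7.17 in Dex replicate 2 (the Dex replicate 1 spot carried a quality mark and was left out), 7.47 and 7.44 in FF, 7.56 and 7.59 in VSG22, and 7.49 and 7.41 in VSGC12. It rose by 0.53 ± 0.06 (1.44-fold, adjusted p = 0.0013) with no overlap, and its other probe, 104 bases further on, rose by 1.06. H2afv, with 3.32 and 3.10 in EtoH, 3.46 and 3.64 in Dex, 3.97 and 3.59 in FF, 3.81 and 3.41 in VSG22, and 3.95 and 3.73 in VSGC12, rose by 0.49 ± 0.15 (1.40-fold, adjusted p = 0.037). The H2afv arrays did not overlap, but the call was lost in 9 of 20 alternatives.

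MacroH2A, an H2A with a large extra domain and a place on silent chromatin, is encoded by H2afy and H2afy2. H2afy rose by 0.36 ± 0.07 (1.29-fold, adjusted p = 0.0081), from 3.58 and 3.57 in EtoH to 3.88 and 3.80 in Dex, 4.04 and 3.91 in FF, 3.99 and 3.98 in VSG22, and 4.04 and 3.84 in VSGC12, with no overlap. H2afy2 scattered widely, with 2.38 and 2.38 in EtoH, 2.09 and 3.02 in Dex, 2.87 and 3.83 in FF, 2.67 and 2.26 in VSG22, and 2.66 and 3.22 in VSGC12, and its change of 0.44 ± 0.33 was not called (adjusted p = 0.31).

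H2afx, whose protein is phosphorylated at DNA breaks, read 2.36 and 2.33 in EtoH, 2.45 and 2.51 in Dex, 2.89 and 2.34 in FF, 2.94 and 2.68 in VSG22, and 2.89 and 2.54 in VSGC12. The FF value of 2.34 lay between the EtoH arrays, and the change of 0.31 ± 0.16 did not pass (adjusted p = 0.15). H2afj, another H2A variant, read 7.39 and 7.20 in EtoH, 7.35 and 7.33 in Dex, 7.77 and 7.63 in FF, 7.88 and 7.64 in VSG22, and 7.69 and 7.67 in VSGC12. Its arrays overlapped through Dex; it rose by 0.33 ± 0.09 (1.26-fold, adjusted p = 0.022), while its second probe, well past the end of the coding sequence, changed by -0.22 and was not called. H2afb3-ps, whose 2 probes the files place on different chromosomes, read -0.64 and -0.95 in EtoH, -0.36 and -0.67 in Dex, -0.71 and -0.99 in FF, -0.75 and -0.56 in VSG22, and -0.65 and -0.80 in VSGC12, a change of 0.11 ± 0.13 that was not called. By gene name, several measured probes covered 8 histone genes. Of these 8, 0 had a pair called in opposite directions or differing by more than 1 on the log2 scale. Probes that the files describe as Hist2h2bb and Hist1h4i under other names did differ from the probes used here, with -2.91 against 1.12 and -2.06 against -0.27.

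**Figure D4:**
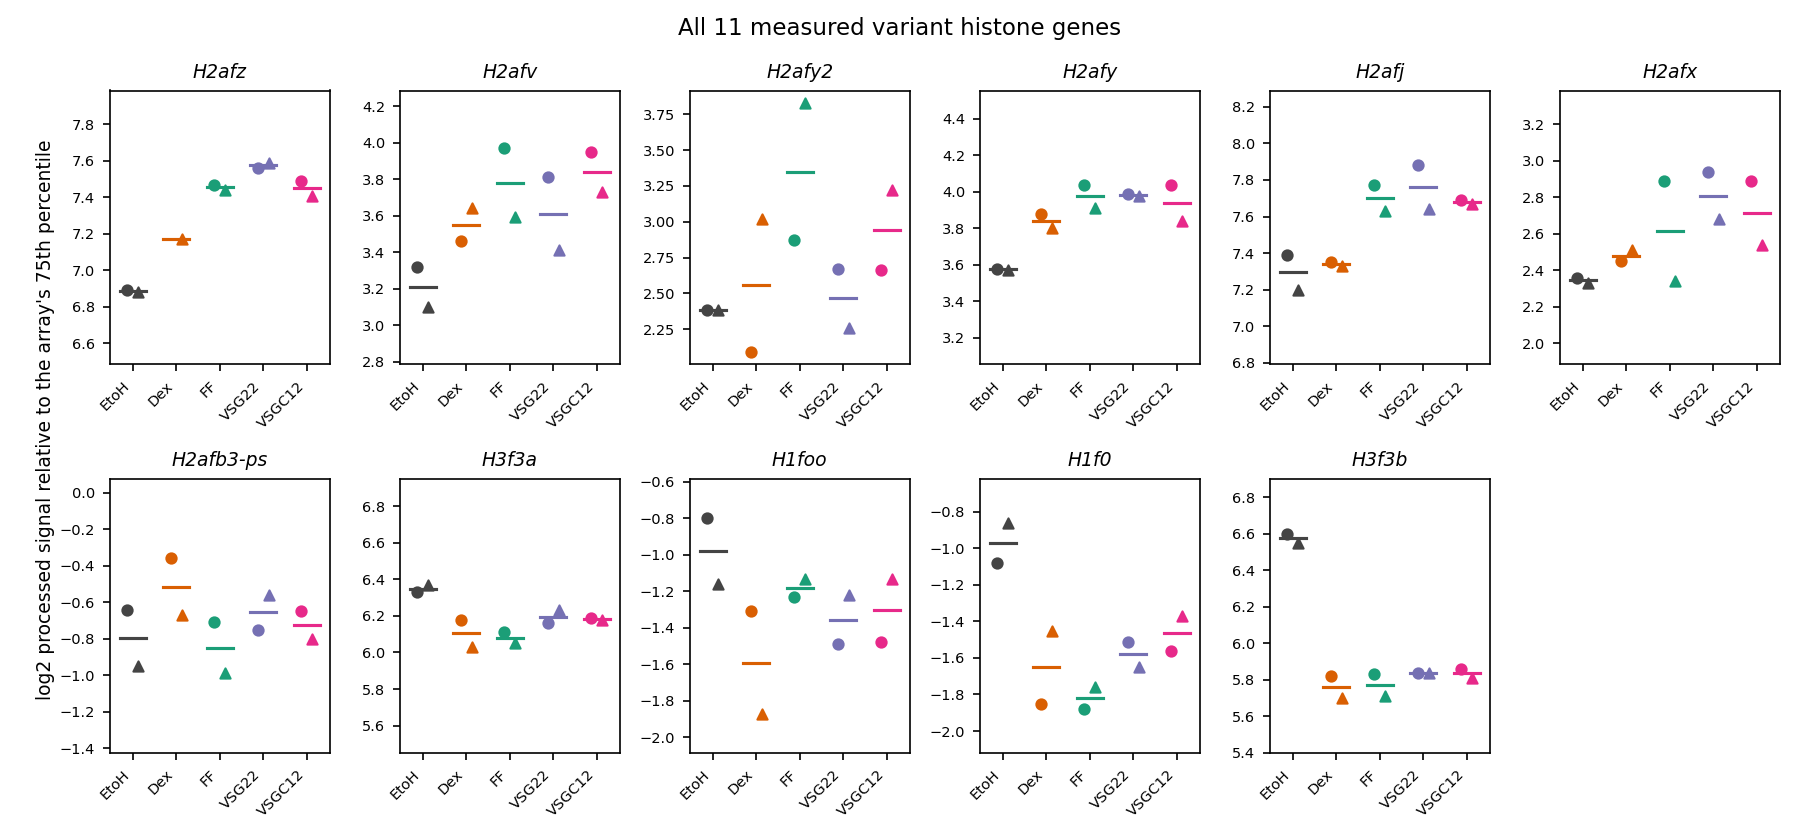
Log2 processed signal relative to the array's 75th percentile (vertical axis, separate scale per gene, at least 1.5 units high) on every array for the 11 measured variant genes; circles are replicate 1, triangles replicate 2 and lines group means. H3f3b, H1f0 and H3f3a lie below EtoH on all 8 glucocorticoid arrays, H2afv and H2afy above it on all 8, and H2afz above it on the 7 that have a value.

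Compared singly, Dex called 19 of the 46 histone genes against EtoH (6 higher, 13 lower), where 32.2% of all tested genes were called (16.5% higher, 15.7% lower). FF called 33 (18 higher, 15 lower; 37.1% of all genes, 17.9% and 19.2%). VSG22 called 32 (20 and 12; 30.6%, 16.1% and 14.5%) and VSGC12 called 31 (18 and 13; 35.5%, 17.2% and 18.3%). These comparisons share the EtoH arrays. Hist1h2ab changed by 1.87 in Dex, 2.45 in FF, 2.68 in VSG22 and 2.58 in VSGC12, and Hist1h1b by 1.48, 2.17, 2.60 and 2.26 in the same order. For Hist2h2aa1 the changes were -2.47, -2.68, -2.82 and -2.74, and for Hist1h1c -2.14, -2.67, -2.71 and -2.60. In each of the 20 genes that rose for the mean of the 4, the change was lowest in Dex, and in 19 of them it was highest in VSG22. The 20 are not separate readings, since several have near-identical probes, and the share of all risen genes with this order was not computed. For H2afz the order rests on 1 Dex array. Its other probe read 5.91 in Dex, FF and VSGC12 and 6.01 in VSG22. Of the 15 that fell, 7 fell least in Dex, 5 in VSG22 and 3 in VSGC12. Without EtoH replicate 2, FF called 20 and VSGC12 19. With array-median scaling the counts were 11 for Dex, 13 for FF, 18 for VSG22 and 15 for VSGC12.

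The 4 compounds were also compared with each other at their common dose and time, in 6 pairs. No histone gene was called in any pair by limma, nor by the F-test over the 4, where 0.255% of all tested genes were called and 17 of 46 histone genes had an unadjusted p under 0.05, against 13.5% of all genes. For VSG22 against Dex, 26 of 46 histone genes had an unadjusted p under 0.05, against 16.7% of all tested genes, and 0.549% of all genes were called. The counts were 16 for FF against Dex (14.4% of all genes unadjusted, 0.366% called) and 19 for VSGC12 against Dex (14.8%, 0.394%). Between the other compounds they were 3 for VSG22 against FF (9.47%), 0 for VSGC12 against FF (4.21%) and 1 for VSGC12 against VSG22 (7.15%), and of all genes 0%, 0.00555% and 0% were called.

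The largest difference between VSG22 and Dex among the genes that rose was that of Hist1h1b, 1.12 higher in VSG22 with a 95% interval from 0.37 to 1.86 (adjusted p = 0.17). Hist1h2ab differed by 0.81 (0.38 to 1.25, adjusted p = 0.11) and Hist1h2ag by 0.71 (0.37 to 1.05, adjusted p = 0.097). Hist1h1c was lower in VSG22 than in Dex, by -0.57 (-0.79 to -0.35, adjusted p = 0.065). Between VSGC12 and VSG22, Hist1h2ab differed by -0.10 (-0.53 to 0.33) and Hist1h1c by 0.10 (-0.12 to 0.32), so differences within these 95% intervals were not excluded. When Dex replicate 1 was left out, some calls appeared between compounds, among them Hist1h1c (-0.58) and H2afz (0.41) for VSG22 against Dex. The Dex group then holds 1 array, which is assumed to vary like the arrays of the other groups. H2afz has no Dex replicate 1 value in the whole fit either, where its difference was also 0.41. The other H2afz probe, with both Dex arrays, read 5.91 in Dex and 6.01 in VSG22. With the slide, which equals the replicate number, as a block, 4 genes were called for VSG22 against Dex: Hist1h1b, Hist1h2ag and Hist1h2ak (each adjusted p = 0.044) and Hist2h2aa2 (adjusted p = 0.049).

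Promoters were read from RefSeq (GRCm38.p6), which held 41 replication-dependent and 14 variant promoters by gene symbol. Letters of known histone promoter elements were counted in the 250 bases before the transcript start on both strands: the CCAAT box, the TATAAA box, the octamer ATTTGCAT bound by Oct factors, AAACACA of the H1 box, and the E2F-type sites TTTCGCGC or TTTGGCGC; none of these contains another. CCAAT stood in 34 of 41 replication-dependent promoters (82.9%, against 33.8% of all 32851 promoters) and TATAAA in 21 (51.2% against 12.4%). The octamer was found in 6 of 8 H2B and 7 of 14 H2A promoters and in 0 of the H1, H3 and H4 promoters, against 1.6% of all. AAACACA was present in 5 of 6 H1 promoters (83.3% against 6.25%), and the E2F-type letters in 4 of 41 (9.76% against 0.654%). By direction, CCAAT was in 12 of 15 promoters of genes that rose and 9 of 10 of genes that fell, TATAAA in 8 and 3, the octamer in 4 and 5, AAACACA in 2 and 4, and the E2F-type letters in 3 and 0.

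For the 2 genes with the highest and 2 with low changes, the 120 bases before the start are shown, with these letters in capitals: Hist1h2ab (GRCm38.p6 chr13:23750968-23751087, plus strand), Hist1h1b (chr13:21780626-21780745, minus strand), Hist1h1c (chr13:23738687-23738806, plus strand) and Hist3h2a (chr11:58954565-58954684, plus strand).
Hist1h2ab: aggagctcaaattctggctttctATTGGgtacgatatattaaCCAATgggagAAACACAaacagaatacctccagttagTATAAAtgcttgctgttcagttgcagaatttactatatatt
Hist1h1b: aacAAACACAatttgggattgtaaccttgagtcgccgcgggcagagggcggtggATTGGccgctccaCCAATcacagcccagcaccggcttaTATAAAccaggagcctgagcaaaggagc
Hist1h1c: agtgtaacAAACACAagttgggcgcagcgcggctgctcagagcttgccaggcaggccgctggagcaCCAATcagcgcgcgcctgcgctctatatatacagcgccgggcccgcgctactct
Hist3h2a: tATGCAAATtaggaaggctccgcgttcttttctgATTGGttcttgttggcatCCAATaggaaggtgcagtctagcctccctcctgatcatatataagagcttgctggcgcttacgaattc
Hist1h1b and Hist1h1c, with changes of 2.13 and -2.53, both hold AAACACA and CCAAT in this window. Their changes were read at unlike probe positions, in the transcript body for Hist1h1b and beyond the stem-loop for Hist1h1c. A match of letters is a description of the sequence and no measure of binding.

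Other genes were taken from 4 lists: DNA synthesis, histone chaperones and deposition, histone gene transcription, and histone mRNA 3′ end processing and decay. Their counts for the mean of the 4 stand against 44.2% of all tested genes called, 21.6% higher and 22.5% lower. Of 18 DNA synthesis genes, 16 rose and 1 fell for the mean of the 4, with a median change of 1.35. The highest were Tk1 (thymidine kinase, 3.62), Rrm2 (a ribonucleotide reductase subunit, 3.27) and Cdc6 (which loads the replicative helicase, 3.13); Ung, which removes uracil from DNA, fell by 0.57. The part of these changes in the histone results was not tested. Of 27 measured chaperone and deposition genes, 15 rose and 2 fell (median 0.37), with Oip5 (2.48) and Mis18a (1.60), both of centromeric histone loading, and Asf1b (2.14), which carries new H3 and H4, highest. Mms22l (-0.70) and Ubn1 (-0.37) fell.

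Of 8 measured genes that act on histone transcription, Ccne1 (cyclin E1) rose by 0.87, while Pou2f1 (Oct-1, which binds the octamer) fell by 0.47 and Creb1 by 0.27. Of 18 genes of histone mRNA 3′ end processing and decay, 6 rose and 4 fell, and 8 were not called. Cstf2 (1.75), Cpsf2 (0.77) and Ncbp2 (0.54), of the shared cleavage machinery and the cap-binding complex, were highest. Tut7 (-0.34), which adds uridines to histone mRNA during decay, Sympk (-0.31) and Lsm11 (-0.30), a subunit of the U7 particle that cuts histone pre-mRNA, were lowest. Slbp, whose protein binds the stem-loop, was not called (0.07, adjusted p = 0.65).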

How the data were processed

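The deposited files hold, per the file headers, scanner spots read by Agilent Feature Extraction 10.7.3.1, as intensity: a processed signal per spot with background subtracted, and other columns with the software's flags. The submitters' processing notes name limma without its step. Members and gene lists were chosen with earlier results of these data known. Spots flagged non-uniform or outlying were left out, spots of 1 probe were averaged as log2 signals, and each array's 75th percentile over non-control probes was subtracted. On an array, a probe was well above background if over 0.5 of its spots were. The probe with the highest mean among measured probes represented a gene. Names follow the files; 72 histone probes matched RefSeq (GRCm38.p6) by accession and 5 by synonym. Probe positions are on mm9, without annotation of that build.

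All 5 groups were fitted with limma 3.58.1 in R 4.3.3 (lmFit, eBayes, no covariate; residual degrees of freedom 5, prior 1.81), two-sided, with Benjamini-Hochberg adjustment over all genes within a comparison. The pipeline was tested on simulated data. Array-by-array values are given for the 6 highest and 6 lowest replication-dependent genes and all variants; of each list the 3 highest and 3 lowest called genes are named. The replicate number equals the slide; deviations from group means correlated between groups with r from -0.04 to 0.32 across genes, so no block was used. Alternatives changed scaling, background correction, filters, probe choice, slide and the arrays used.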

Additional observations from a re-analysis of the deposited data

How the results depend on the processing

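Of the 35 called histone genes, 17 kept their call and direction under every alternative they could be fitted in and 18 lost the call in at least 1. Scaling by the array median called 20 histone genes for the mean of the 4 glucocorticoids, 11 for Dex, 13 for FF, 18 for VSG22 and 15 for VSGC12; 7 replication-dependent genes fell, 1 variant rose and 1 fell. Without the filter on dim probes, FF called 20, VSGC12 19, and 1 variant rose. Between glucocorticoids, normexp background correction made 3 calls, all of Hist1h1c against Dex. A replicate block (slide) made 4, for VSG22 against Dex, and 36 calls for the mean of the 4. With each array left out in turn, calls ranged from 23 to 34 for the mean of the 4, 16 to 19 for Dex, 20 to 32 for FF, 24 to 32 for VSG22, 19 to 33 for VSGC12 and 0 to 8 over the pairs; replication-dependent genes that rose from 8 to 17 and that fell from 11 to 13; variants that rose from 1 to 4 and that fell from 1 to 3. EtoH replicate 2 gave the lowest of these for the mean of the 4, FF, VSGC12, the replication-dependent genes that rose and the variants. Leaving out EtoH replicate 1 or Dex replicate 2 left 2 variants that rose. Omitting FF replicate 2 or Dex replicate 2 gave 1 call over the pairs. The cause of these shifts was not tested. The reversed values belong to genes that were not called: H2afb3-ps was -0.05 without EtoH replicate 2 and 0.26 without EtoH replicate 1, and Hist2h3c1 was -0.06 with the percentile over detected probes, -0.01 with quantile normalization, -0.03 with normexp, and between -0.04 and 0.08 with an array left out, -0.04, -0.02 and -0.04 without EtoH replicate 2, VSG22 replicate 1 and Dex replicate 1. The change differed between the 2 slides by at most 0.85 (Hist1h4h). Among called genes, the probes of Hist1h2ba, Hist1h3f, Hist1h2ah and Hist1h4d lie in patches of local signal on some arrays and drop out with that filter. The submitters' processed values were not used here. The 18 histone genes near background have no tested value.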

Other observations

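The array also carries 29 probes that the files describe as histones under other gene names, and these were examined after the values were seen. Of the 20 that were measured, 2 rose and 13 fell for the mean of the 4 glucocorticoids against EtoH (limma at probe level). The share of all probes called at probe level is not given here. At gene level 21.6% of all tested genes were called higher and 22.5% lower. A probe described as the Hist2h2bb gene, which begins at base 1340 of its transcript, changed by -2.91 (adjusted p = 3.3e-05), whereas the Hist2h2bb probe of the report, at base 433, changed by 1.12. A probe described as the Hist1h4i gene at base 581 changed by -2.06 (adjusted p = 1.8e-05), and the Hist1h4i probe of the report at base 483 by -0.27. The probes that rose were described as histone H2A type 1-H (1.72, adjusted p = 0.00011) and as the Hist1h4d gene (0.85, adjusted p = 0.0019), the same change as that of Hist1h4d itself. Several of those that fell are described as similar to the H3.3 gene H3f3a, and some names hold several probes. These falls may therefore not be separate readings.

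A probe described as similar to an H2b-3 coding region had the lowest change of this set, -3.35 (adjusted p = 0.0014). Another described as the Hist1h4m gene, which ends 6 bases past the stem-loop, changed by -0.69 (adjusted p = 0.0017), the opposite direction from the measured H4 genes that were called. Of the replication-dependent genes that were not measured, Hist1h2ae and Hist2h2ab came closest, with 3 arrays well above background each.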
